A study of Mus musculus with 4 samples.

Results

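The region described here is the stretch of mouse chromosome 8 from 29 to 59 Mb (mm10) that surrounds Neil3, the gene disrupted in the mutant mice. Its members are all CCGG sites that lie there, and its borders were chosen from the measured data, because wild-type sites were missing from the Neil3-null samples there more often than elsewhere. The shares of missing sites below are therefore a description, given with no test. The region held 10777 of the 61441 sites of chromosome 8 listed in any sample, and 8133 of them were listed in all 4 samples. Over the whole genome 1110575 sites were listed in any sample.

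The study compared infarcted and non-infarcted left ventricle of Neil3-null and wild-type mice by HMST-seq, a method that counts short tags next to CCGG sites after cutting with different enzymes. The groups were Neil3-null infarcted, Neil3-null non-infarcted, wild-type infarcted and wild-type non-infarcted tissue, with 1 sample in each. All mice were C57BL/6 by the labels and 8 weeks old, and all 4 tissues, the non-infarcted ones included, were taken 3 days after myocardial infarction. Neither the number of animals behind a sample nor the extent of the Neil3 deletion is given in the sources used here.

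Neil3 encodes a DNA glycosylase, an enzyme that starts base excision repair by cutting oxidized bases out of DNA. Cytosine in CpG can be methylated to 5-methylcytosine, which TET enzymes can oxidize further to 5-hydroxymethylcytosine. HpaII cuts CCGG only where the inner cytosine is unmodified, MspI cuts with or without methylation, and glucosylation of 5-hydroxymethylcytosine protects a site from MspI. The HpaII library of a sample thus reads unmodified sites, its MspI library reads all sites, and its glucosylated MspI library, called C+mC here, reads unmodified and methylated sites.

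The values are the authors' normalized signal per site and library, and the number of tags behind them is unknown. A site is called missing from a sample where its file has no entry for it. A missing entry can mean that the site is absent from the DNA or that it fell under a limit of listing, and these files cannot tell the 2 apart. The labels give the strain of the mice but not that of the DNA around the Neil3 allele, which was not checked here. The unmodified index of a set of sites is the summed HpaII signal as a percent of the summed MspI signal, and the C+mC index is the same with the C+mC library. The 3 libraries of a sample had similar total signals, so an index can exceed 100 and is read here as a relative value. The summed signal per library on the autosomal sites used lay between 33764133 and 43428586, and it was lowest in all 3 libraries of wild-type infarcted tissue, which shifts plain signals but not centred ratios. In wild-type non-infarcted tissue the C+mC library resembled the MspI library less than in the other samples. On the log2 scale their r was 0.434 over the 7540 sites of the region used below, against 0.620 to 0.663 elsewhere, so C+mC values of infarcted tissue, which do not use this library, are given beside those of non-infarcted tissue. Since each group is 1 sample, no genotype or infarct difference could be set against a spread between replicates, and no test was run. The genotype difference was measured separately in infarcted and in non-infarcted tissue, which share no library. Whether both tissues of a genotype came from the same animals is not known here, so their agreement may not be independent.

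Promoter sequences show single sites of the region in their context. Of the 170 RefSeq promoter windows of the region (250 bases before to 50 after a gene start, GRCm38.p6, the same assembly as mm10), 37.1% contained CCGG, a motif that reads the same on both strands, against 52.8% of all such windows of the mouse genome. The windows of the region held 52 sites listed in both wild-type samples, and 3 of these (5.77%) were missing from both Neil3-null samples. The sequences of these 3, and of the promoters of Neil3 and of the heart muscle gene Pdlim3, whose sites were listed in all 4 samples, are printed 5′ to 3′ on the strand of the gene. Capitals mark each CCGG listed by the study. The coordinates on mm10 are chr8:31367599-31367768 (plus strand) for the predicted gene 7420700N18Rik, chr8:45975378-45975547 (plus strand) for Ufsp2, chr8:46301569-46301748 (plus strand) for the predicted gene Gm39168, chr8:53639066-53639315 (minus strand) for Neil3 and chr8:45885237-45885486 (plus strand) for Pdlim3.
7420700N18Rik: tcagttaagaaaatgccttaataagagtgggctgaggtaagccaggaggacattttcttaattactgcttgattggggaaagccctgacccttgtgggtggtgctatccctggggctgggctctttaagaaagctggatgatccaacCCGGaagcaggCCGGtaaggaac
Ufsp2: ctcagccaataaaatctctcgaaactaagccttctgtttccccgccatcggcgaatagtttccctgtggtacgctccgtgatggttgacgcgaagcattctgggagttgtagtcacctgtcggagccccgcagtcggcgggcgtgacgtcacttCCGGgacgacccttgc
Gm39168: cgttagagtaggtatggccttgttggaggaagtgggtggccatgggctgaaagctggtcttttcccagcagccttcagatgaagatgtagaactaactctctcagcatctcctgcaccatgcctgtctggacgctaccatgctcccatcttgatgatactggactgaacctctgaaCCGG
Neil3: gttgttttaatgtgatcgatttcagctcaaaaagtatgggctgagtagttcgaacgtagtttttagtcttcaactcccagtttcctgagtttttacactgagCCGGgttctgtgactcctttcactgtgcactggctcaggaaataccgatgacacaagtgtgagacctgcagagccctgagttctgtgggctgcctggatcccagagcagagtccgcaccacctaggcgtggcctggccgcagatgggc
Pdlim3: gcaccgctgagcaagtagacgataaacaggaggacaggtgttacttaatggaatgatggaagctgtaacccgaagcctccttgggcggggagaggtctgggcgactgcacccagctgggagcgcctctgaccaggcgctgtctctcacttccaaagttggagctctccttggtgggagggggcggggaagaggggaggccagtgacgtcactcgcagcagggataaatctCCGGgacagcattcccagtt

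The site missing from the Neil3-null samples at Ufsp2, which encodes a protease that processes the ubiquitin-like protein UFM1, began 4 bases after the gene start at position 45975532. In wild-type infarcted tissue it had an HpaII signal of 142 and an MspI signal of 12.4. In wild-type non-infarcted tissue the same site had an HpaII signal of 134 and an MspI signal of 12.5. It was thus among the sites with HpaII far above MspI in both wild-type samples, yet it had no entry in either Neil3-null sample.

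At 7420700N18Rik 2 sites lay with 7 bases between them. The upstream site, which begins 3 bases before the gene start, was listed in wild-type tissue only, with an MspI signal of 15.7 in infarcted and 23.8 in non-infarcted tissue. Its neighbour was listed in all 4 samples, with MspI signals of 26.6 and 26.2 in infarcted and non-infarcted Neil3-null tissue, against 17.6 and 29.2 in the same tissues of wild type. The upstream site was thus missing while the site next to it was listed throughout. The third promoter site, at Gm39168, had MspI signals of 10.5 and 15.5 in infarcted and non-infarcted wild-type tissue.

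Over the region, 1397 of the 10031 sites that both wild-type samples listed had no entry in either Neil3-null sample, which is 13.9% (95% Wilson interval 13.3 to 14.6, which covers the counting of sites only). The background in the rest of chromosome 8 was 0.531% (256 of 48208 sites). In the other direction 28 of 8453 sites of both Neil3-null samples (0.331%) were missing from both wild-type samples, against a background of 0.287% in the rest of the chromosome. Over the whole region the share in that direction was near the background. By block it was 0.156% from 29 to 44 Mb (6 of 3840) and 0.298% from 44 to 51 Mb (9 of 3021). From 51 to 59 Mb it was higher, at 0.817% (13 of 1592, 95% Wilson interval 0.478 to 1.39). Sites missing from 1 Neil3-null sample alone made up 2.34% in infarcted and 2.65% in non-infarcted tissue, against 1.53% and 1.59% in the rest of the chromosome.

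The missing sites were spread unevenly. From 29 to 44 Mb 1103 of 5080 wild-type sites were missing (21.7%), from 44 to 51 Mb 118 of 3162 (3.73%), and from 51 to 59 Mb, where Neil3 lies, 176 of 1789 (9.84%). By 1-Mb bins the share ran from 0.612% to 36.8% with a median of 15.2% over 30 bins. The 97 bins of the rest of the chromosome ran from 0 to 7.22% with a median of 0.458%, and their second-highest value was 1.75%. Of the 30 bins, 29 lay above that value, and the exception was the bin from 44 to 45 Mb. The highest shares, 36.8% each, were in the bins from 37 to 38 Mb and from 42 to 43 Mb, over 10 Mb from Neil3, while the bin from 53 to 54 Mb, which holds Neil3, had 3.92% (8 of 204).

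**Figure D1:**
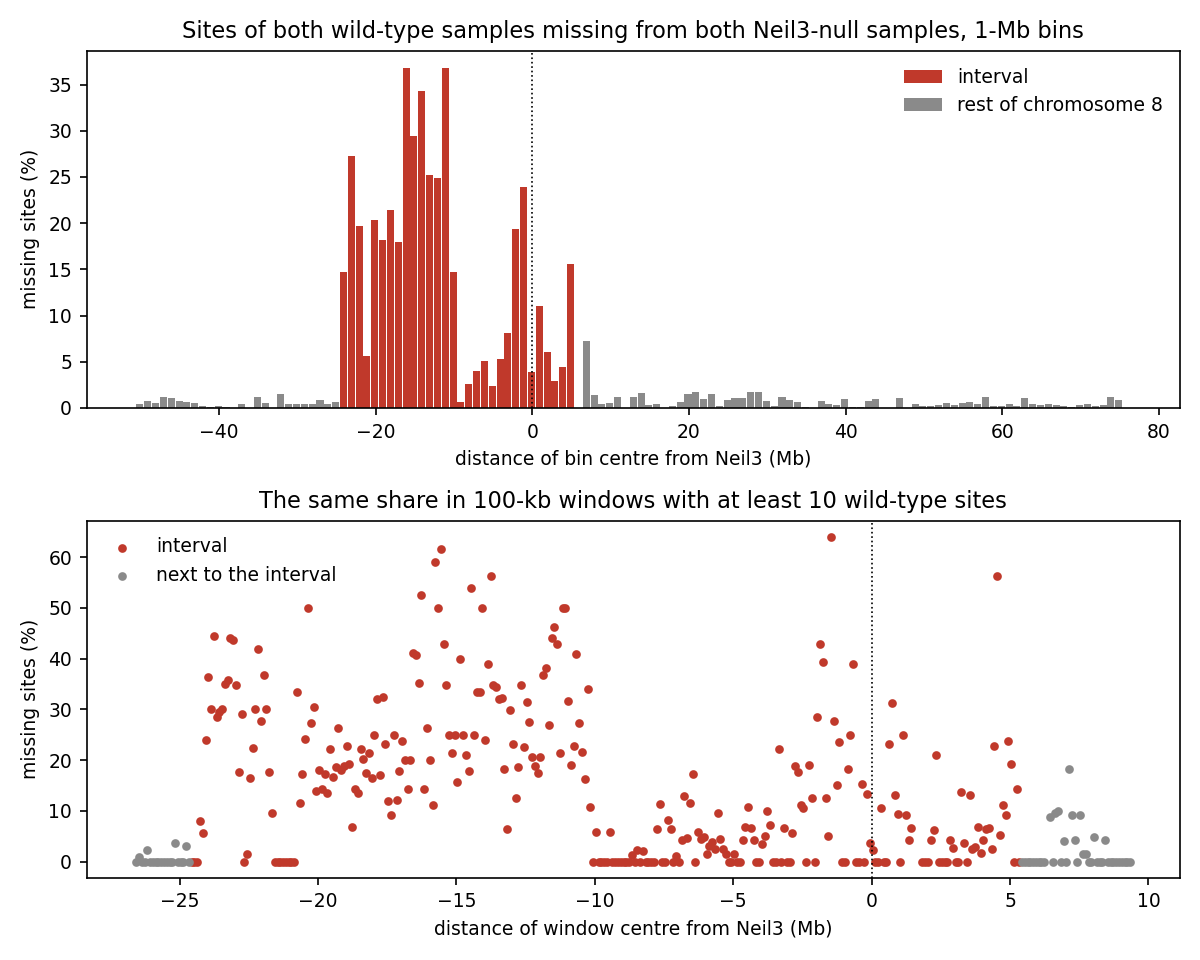
Percent of the sites of both wild-type samples that were missing from both Neil3-null samples, in 1-Mb bins over chromosome 8 (top) and in 100-kb windows with at least 10 such sites (bottom), by distance from Neil3. Bins of the region (red) reach 36.8%, bins of the rest of the chromosome (grey) reach 7.22%, and stretches with no missing site lie between windows with many.

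At 100 kb the share missing from both Neil3-null samples changed over short distances. No wild-type site of 87 was missing from 29 to 29.3 Mb (at most 3.45% by 3 counts of the total), 3 of 43 (6.98%) were missing from 29.3 to 29.5 Mb, and 30 of 95 (31.6%) from 29.5 to 30 Mb. Inside the region, none of 204 sites was missing from 32 to 32.8 Mb (at most 1.47%), a stretch inside Nrg1, the gene of the ErbB ligand neuregulin-1, whereas 75 of 381 (19.7%) were missing in the Mb before it and 15 of 62 (24.2%) in the 200 kb after it. A run there of 216 wild-type sites in a row, over 823 kb, contained no site missing from both Neil3-null samples. From 43 to 43.5 Mb 39 of 174 sites (22.4%) were missing, and from 43.5 to 45.8 Mb 5 of 777 (0.644%). Around Neil3, from 53 to 54.2 Mb, 8 of 244 (3.28%) were missing, between 80 of 369 (21.7%) from 51 to 53 Mb and 22 of 159 (13.8%) from 54.2 to 55 Mb.

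At the distal border, from 58 to 58.9 Mb 32 of 185 sites (17.3%) were missing, and from 58.9 to 60 Mb none of 172 (at most 1.74%). Outside the region the share was 19 of 263 sites (7.22%) from 60 to 61 Mb, the highest bin of the rest of the chromosome, and 6 of 437 (1.37%) from 61 to 62 Mb. Without 59 to 62 Mb the background of the rest was 0.488%. Just before the proximal border, from 28 to 29 Mb, 2 of 299 sites (0.669%) were missing.

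In wild-type tissue the missing sites had somewhat lower signals than the sites listed in all 4 samples. In infarcted wild type the 1397 sites had a median MspI signal of 19.6, against 24.3 for the 8133 sites of the region listed in all 4 samples. In non-infarcted wild type the medians were 22.95 and 29.4. The median of HpaII over MspI was 91.3% in infarcted and 88.5% in non-infarcted tissue, against 96.8% and 96.2% at the sites listed in all 4. The 256 sites missing from Neil3-null tissue in the rest of the chromosome had lower values, with MspI medians of 11.8 and 16.1 and HpaII over MspI medians of 52.4% and 37.0% in infarcted and non-infarcted wild type.

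Missing sites occurred in every class of wild-type signal, more often at low signal, at isolated sites and away from genes. Of the missing sites 68.8% had no other CCGG within 500 bp, against 60.2% of the sites listed in all 4, and 32.6% lay in protein-coding genes, against 45.25%. Of sites with a mean wild-type MspI signal under 10, 20.8% were missing (288 of 1384), and of sites at 40 or more, 10.97% (326 of 2972). By wild-type HpaII over MspI the share was 14.0% under 50% (379 of 2709) and 13.0% at 200% or more (312 of 2393), so heavily and lightly modified sites were missing about equally often. Sites with no other CCGG within 500 bp were missing in 15.5% (961 of 6205), sites with 2 to 4 others in 9.20% (101 of 1098), and none of the 11 sites in denser clusters was missing. Within 1 kb of a gene start 6.49% were missing (17 of 262), against 14.1% further away (1380 of 9769). Inside protein-coding genes the share was 10.5% (456 of 4341) and outside them 16.5% (941 of 5690).

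Missing sites mostly stood among listed ones. The longest run of wild-type sites all missing from both Neil3-null samples was 9 sites over 14.4 kb, starting at file position 41164249, and the longest run with none missing was 250 sites over 793 kb, starting at 44156006. The 28 sites listed in both Neil3-null samples alone had median MspI signals of 9.49 in infarcted and 10.1 in non-infarcted Neil3-null tissue, and 13 of them were under 10 in both. They ranged up to 44.2 and 50.6.

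Of the protein-coding genes, those with most missing sites were long genes. Sgcz, which encodes zeta-sarcoglycan of the sarcoglycan complex of muscle, had 65 of its 206 wild-type sites missing. Galntl6, of the family that attaches N-acetylgalactosamine to proteins, had 36 of 292, and Dlc1, which encodes a GTPase-activating protein, had 34 of 177. Mtus1, a microtubule-associated protein, had 22 of 103. Wrn, the DNA helicase lost in Werner syndrome, had 21 of 53, the largest share of these 5 genes at 39.6%. Tenm3, a teneurin with 634 wild-type sites from 48.2 to 49.5 Mb, had 15 missing, and Sorbs2, an adaptor protein of the cardiac Z-disc, had none of 130.

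The sites that remained listed in all 4 samples also differed by genotype. Of these, 7540 had a mean MspI and C+mC signal of at least 10 and were compared with 44302 sites of the rest of chromosome 8. Differences are log2 of Neil3-null over wild type, centred on the median site of the rest of the chromosome, and a site was called when it moved at least 2-fold the same way in both tissues. The rule for the borders used the listing of sites and not these signals, but both come from the same 4 samples.

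MspI signal itself differed between genotypes at 214 sites. It was lower in Neil3-null tissue at 175 sites (2.32%), against a background of 0.00677% (3 of 44302), and higher at 39 sites (0.517%), against a background of 0.0542%. The block from 29 to 44 Mb held 145 of the 175 and 30 of the 39. At the 175 sites the median MspI signal was 11.04 and 11.6 in infarcted and non-infarcted Neil3-null tissue, against 41.3 and 53.04 in the same tissues of wild type. The C+mC library, which is cut with the same enzyme but made separately, was also at least 2-fold lower in both tissues at 86 of these sites and lower by any amount at 148. The HpaII library was at least 2-fold lower in both tissues at 33 of them and lower by any amount at 106. Over all sites used, HpaII was at least 2-fold lower in both tissues at 2.215% of the region and 0.447% of the rest. The C+mC counts and the counts by any amount have no such background here. Over all sites used of the region, r of the MspI and C+mC differences was 0.488 and 0.354 in infarcted and non-infarcted tissue. In the rest of the chromosome it was 0.249 and 0.0816.

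The genotype difference of a site correlated between the tissues inside the region and hardly at all outside it. Pearson's r of the MspI difference between infarcted and non-infarcted tissue was 0.558 over the 7540 sites, and 0.0036 over the 44302 sites of the rest. It was 0.709 from 29 to 44 Mb (3469 sites), 0.217 from 44 to 51 Mb (2717 sites) and 0.292 from 51 to 59 Mb (1354 sites). Spearman's rank correlation was lower, at 0.166 over the region and -0.0154 in the rest. By block it was 0.293 from 29 to 44 Mb, 0.0461 from 44 to 51 Mb and 0.0488 from 51 to 59 Mb. Agreement in rank was thus slight from 44 to 59 Mb. These correlations are descriptions across sites, which share their libraries and depth and are not replicates. The tissues of a genotype may also share animals.

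**Figure D2:**
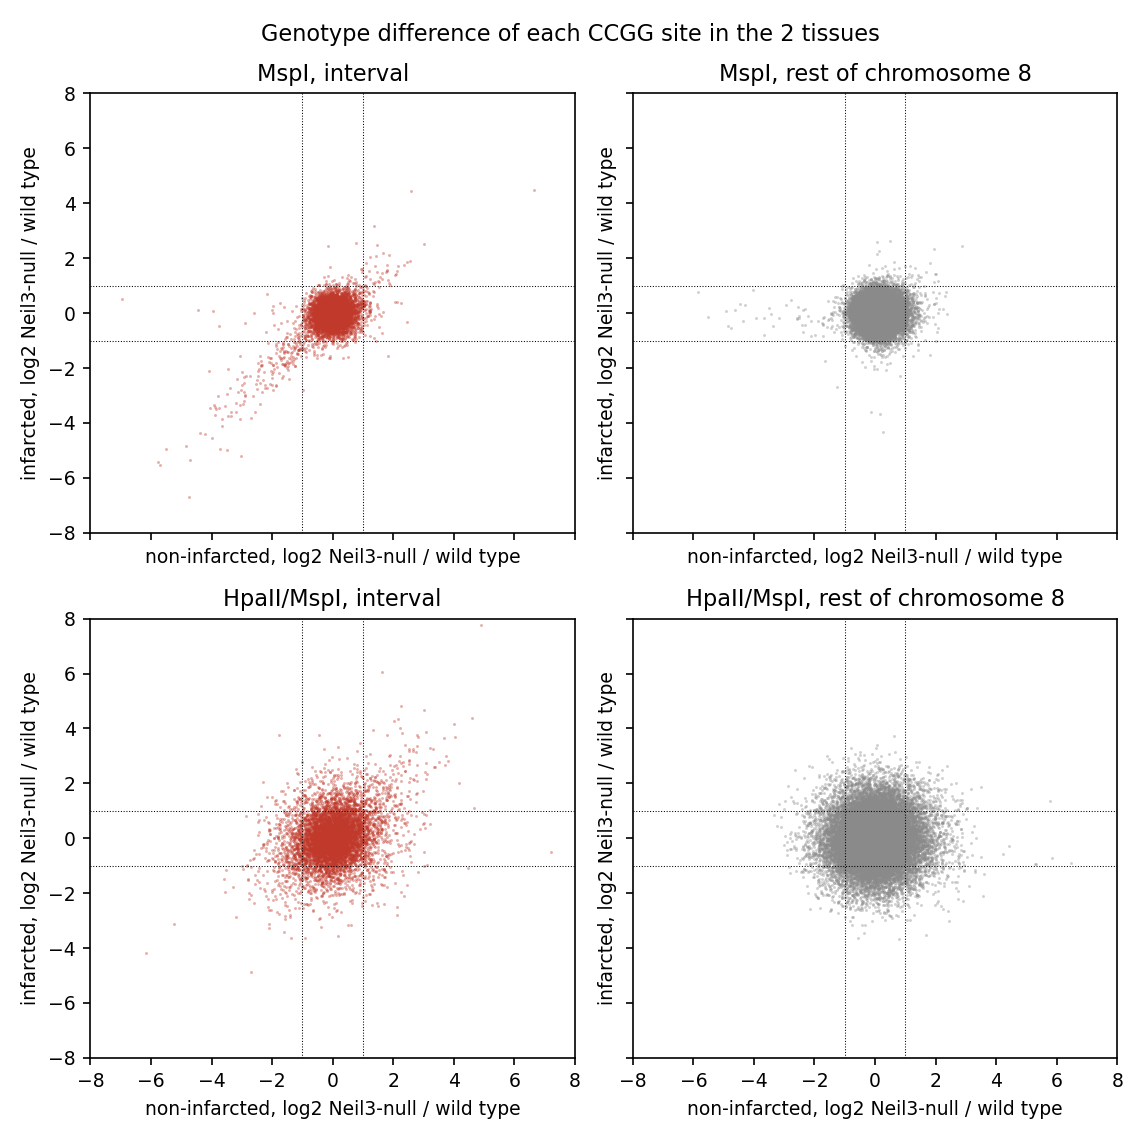
Log2 of Neil3-null over wild-type signal of each CCGG site in infarcted (vertical) and non-infarcted tissue (horizontal), for MspI (top) and HpaII over MspI (bottom), in the region (red, 7540 sites) and the rest of chromosome 8 (grey, 44302 sites). Dotted lines mark 2-fold; sites of the region extend along the diagonal (r = 0.558 for MspI), and those of the rest do not (r = 0.0036).

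The difference followed the missing sites along the chromosome. In 100-kb windows of the region with no missing site, r of the MspI difference was 0.190 (1724 sites in 70 windows). In windows with under 10% missing it was 0.321 (2326 sites), in those with 10 to under 25% it was 0.668 (2431 sites), and in those with 25% or more it was 0.755 (1051 sites). Spearman's rank correlation was -0.0046, 0.0585, 0.284 and 0.346 in these classes, so ranks hardly agreed where under 10% were missing. The share of sites with MspI lower in both tissues was 0.232%, 0.903%, 3.66% and 5.61% in the same 4 classes. Sites called lower were not confined to the neighbourhood of missing sites, since 142 of the 175 lay over 1 kb from any site listed in 1 genotype alone.

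By 1-Mb bins, r of the MspI difference had a median of 0.532 in the region and 0.00161 in the rest of the chromosome. It exceeded the highest bin of the rest, 0.161, in 24 of 30 bins. The highest values were 0.832 from 38 to 39 Mb and 0.829 from 41 to 42 Mb. The bin with Neil3, from 53 to 54 Mb, had -0.087, and the bin from 44 to 45 Mb had -0.055. In these 2 bins 3.92% and 0.612% of wild-type sites were missing. The only other bin of the region below 0 was that from 58 to 59 Mb, with an r of -0.054 although 15.6% (32 of 205) were missing there.

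**Figure D3:**
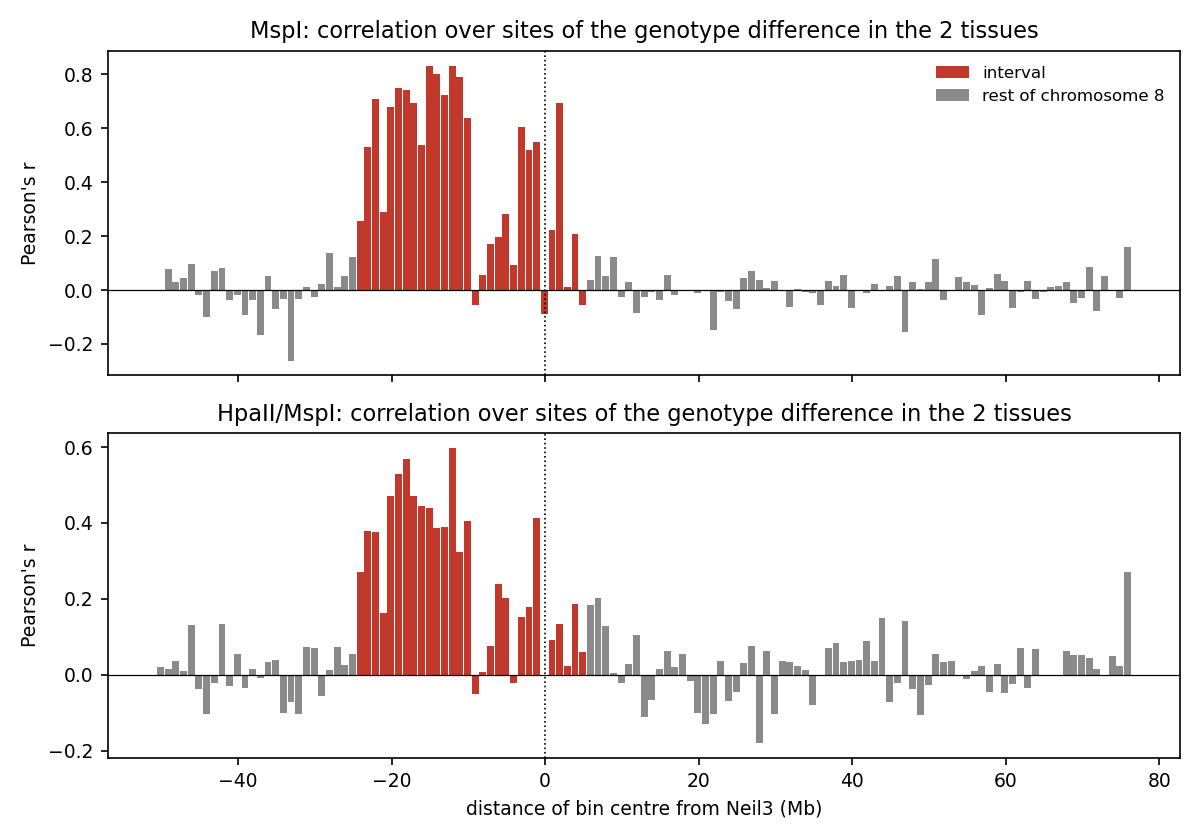
Pearson's r over the sites of each 1-Mb bin between the genotype differences in infarcted and non-infarcted tissue, for MspI (top) and HpaII over MspI (bottom), by distance from Neil3. Bins of the region (red) have a median of 0.532 for MspI, and bins of the rest of chromosome 8 (grey) a median of 0.00161; the bin at Neil3 itself is below 0.

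The unmodified ratio, HpaII over MspI, was higher in Neil3-null tissue at 246 sites of the region (3.26%), against a background of 0.799%. It was lower at 165 sites (2.19%), against a background of 0.666%. In opposite directions in the 2 tissues, 1.62% of sites of the region and 1.34% of the rest moved at least 2-fold. Between tissues, r of the difference was 0.307 in the region and 0.0174 in the rest, and 0.450 from 29 to 44 Mb. Of the 246 sites with a higher ratio, 101 (41.1%) also had MspI called lower, and 80 had an MspI signal that moved by less than 0.5 on the log2 scale in both tissues.

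MspI is called steady where it moved by less than 0.5 on the log2 scale in both tissues. Over the 5125 sites of the region with steady MspI, the ratio was higher at 80 (1.56%) and lower at 82 (1.60%). The matching shares over 33381 steady sites of the rest were 0.737% and 0.428%. Between tissues r of the ratio difference was 0.213 over these sites of the region and 0.0182 in the rest.

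The C+mC ratio moved at fewer sites. It was higher in Neil3-null tissue at 83 sites of the region (1.10%), against a background of 0.321%, and lower at 48 sites (0.637%), against a background of 0.287%. Its r between tissues was 0.157 in the region and 0.0325 in the rest. With steady MspI, 21 sites (0.410%) were higher and 12 (0.234%) lower, against 0.285% and 0.0959% of the rest.

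Single sites show the forms these differences took. They were taken as the 5 largest rises and 5 largest falls of the unmodified ratio by the smaller of the 2 tissue differences, so their direction is set by the choice, and positions are those of the first C of the motif. At 41037120, in Mtus1, MspI was 2.71 and 2.80 in infarcted and non-infarcted Neil3-null tissue, against 64.9 and 82.1 in the same tissues of wild type. Its HpaII signal was 16.3 and 18.01 in Neil3-null tissue, against 30.7 and 31.8 in wild type. With C+mC of 1.84 and 1.26 in Neil3-null tissue, this site passed the minimum signal through wild type alone. MspI fell much more than HpaII there, and all 5 of the rises were sites of low MspI in Neil3-null tissue.

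At 34407762, outside protein-coding genes, MspI was 10.5 and 10.01 in infarcted and non-infarcted Neil3-null tissue, against 114 and 148 in wild type. HpaII there was 43.4 and 41.9 in Neil3-null tissue, against 37.8 and 48.2 in wild type. The groups did not overlap in MspI and overlapped in HpaII. The reverse form was a site at 35684769 with MspI of 49.8 and 56.0 in Neil3-null tissue, against 1.84 and 0.561 in wild type, while HpaII was 77.6 and 55.9 in Neil3-null tissue, against 52.7 and 40.7 in wild type. That site passed the minimum signal through its Neil3-null values.

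Another form was a change of HpaII with steady MspI. At 37779030, in Sgcz, HpaII was 8.03 and 4.80 in infarcted and non-infarcted Neil3-null tissue, against 58.9 and 45.2 in wild type. MspI at this site was 16.6 and 12.4 in Neil3-null tissue, against 16.5 and 12.8 in wild type. At 37204914, outside protein-coding genes, HpaII was 3.96 and 4.14 in Neil3-null tissue, against 16.6 and 32.5 in wild type, with MspI of 83.2 and 70.9 against 68.1 and 92.2. In both cases the HpaII signals of the genotypes did not overlap and the MspI signals were close. The Neil3-null HpaII values at both sites were near or below the 5th percentile of HpaII in the region. That percentile was 7.52 in infarcted and 7.58 in non-infarcted Neil3-null tissue. HpaII was not part of the minimum signal, so this form rests on values at the low end.

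Summed over 1-Mb bins, the unmodified index of the region differed by genotype a little more than elsewhere. The difference, Neil3-null minus wild type, had a median over 30 bins of 2.25 percentage points in infarcted tissue and 5.40 in non-infarcted tissue. Over the 97 bins of the rest of the chromosome the medians were 1.36 and 2.85. The index has MspI as its denominator. On the centred log2 scale the median site of the region was at -0.020 and -0.043 for MspI in infarcted and non-infarcted tissue. For HpaII it was at -0.040 and -0.037. How much of the index difference came from either library was not tested. In both tissues 18 of the 30 bins lay above the median of the rest and 3 below, while outside 24 of 97 lay above and 24 below in both. Over bins, r between the tissues was 0.680 in the region and 0.0469 in the rest, again a description.

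The bin from 38 to 39 Mb had the largest differences, 11.2 points in infarcted and 12.2 in non-infarcted tissue. The bin from 55 to 56 Mb had 10.2 and 9.88, that from 39 to 40 Mb 9.99 and 8.14, and that from 52 to 53 Mb 8.08 and 11.5. In the opposite direction stood the bin from 37 to 38 Mb with -4.65 and -1.51. The highest bin of the rest of the chromosome reached 6.33 in infarcted and 11.4 in non-infarcted tissue, and 6 and 3 bins of the region fell outside the range of the rest. Taken as the median site of a bin on the log2 scale, in place of the sum, the median bin of the region stood only 0.0097 above that of the rest in infarcted and 0.021 above it in non-infarcted tissue.

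**Figure D4:**
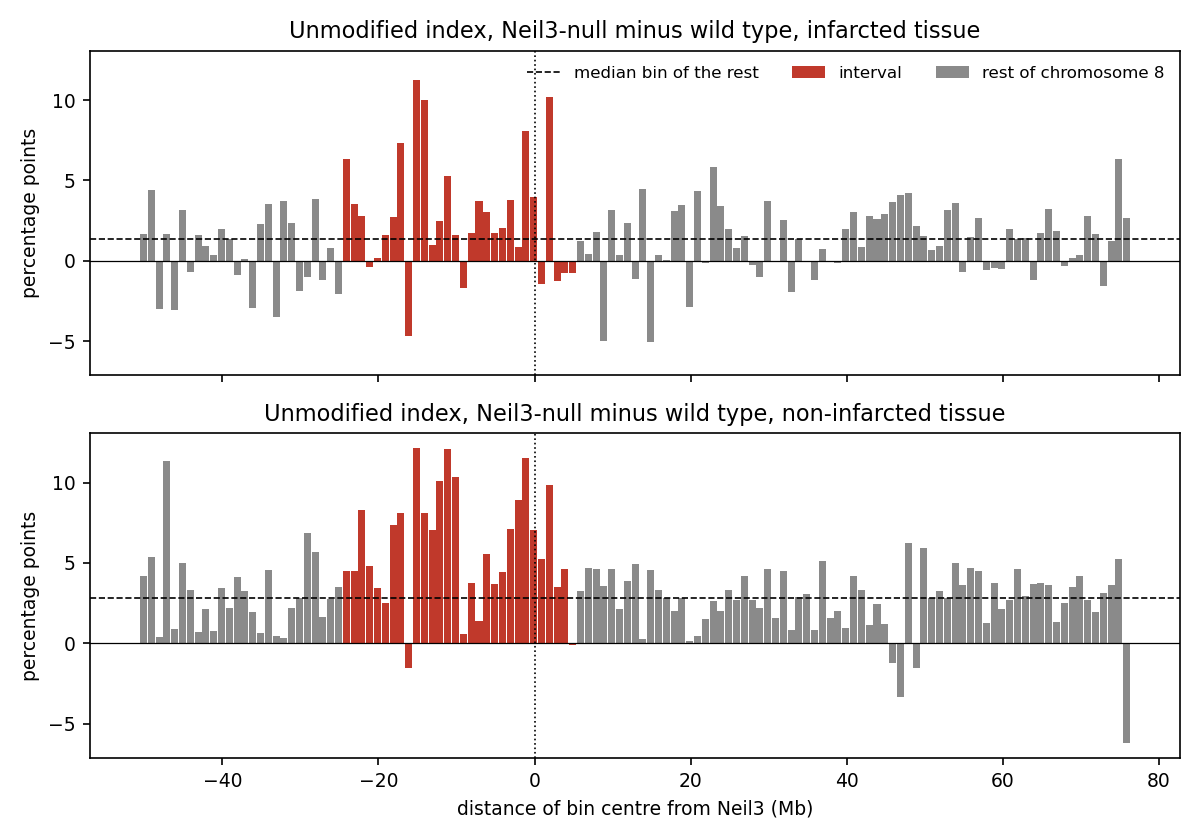
Unmodified index (summed HpaII as a percent of summed MspI), Neil3-null minus wild type in percentage points, per 1-Mb bin by distance from Neil3, in infarcted (top) and non-infarcted tissue (bottom). The dashed line is the median bin of the rest of chromosome 8 (grey); bins of the region (red) reach 11.2 and 12.2 points.

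The C+mC index gave no like pattern. Its genotype difference had a median bin of -0.734 points in infarcted and 2.69 in non-infarcted tissue, against 1.27 and 1.10 in the rest of the chromosome. Of the 30 bins, 22 stood on opposite sides of the median of the rest in the 2 tissues, and r between tissues over bins was -0.384, against -0.236 outside. The level of the index was below that of the rest in all 4 samples. Over all sites used it was 92.2 and 92.4 in infarcted and non-infarcted Neil3-null tissue and 91.8 and 91.3 in the same tissues of wild type, against 97.8 to 99.4 in the rest.

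Summed over all sites, the infarct difference of the unmodified index was no larger in the region than in the rest of the chromosome. In Neil3-null tissue the unmodified index over all sites of the region was 102.9 in infarcted and 102.5 in non-infarcted tissue, a difference of 0.426 points, against 1.52 in the rest. In wild type it was 100.6 in infarcted and 97.2 in non-infarcted tissue, a difference of 3.37 points, against 3.49 in the rest. By 1-Mb bins the median infarct difference in Neil3-null tissue was -0.808 points in the region, against 0.757 in the rest. In wild type it was 2.35 against 2.81. The C+mC index by bins had medians of -2.01 in Neil3-null tissue and 1.20 in wild type, against 0.238 and 0.691 in the rest. Across sites, r of the infarct difference between the genotypes was 0.0752 in the region and 0.0612 in the rest, and that of MspI was 0.0105 and 0.0288. The correlation between contrasts seen for genotype was not seen for infarction.

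Neil3 itself spans 53586867 to 53639065 on chromosome 8. With 1 kb added at each end, 21 sites were listed in any sample, 13 in all 4, and 12 of these passed the minimum signal. The unmodified index was 102.3 and 107.3 in infarcted and non-infarcted Neil3-null tissue, against 79.99 and 71.4 in the same tissues of wild type. The difference was 22.3 ± 13.0 points in infarcted and 35.8 ± 12.7 in non-infarcted tissue (jackknife SE over 12 sites, which measures the spread between sites and not between animals). Without the site of the largest difference, at 53605559, it was 12.7 ± 10.6 and 31.4 ± 14.8.

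The higher index lay in HpaII and not in MspI. HpaII of both Neil3-null samples lay above both wild-type samples at 8 of the 12 sites used and below them at none, against backgrounds of 24.5% and 8.25% in the rest of the chromosome. Some of the 8 had HpaII near the low end of the signal, as given below. MspI lay above at 2 and below at 1, against 26.2% and 5.17%. At 53605559, 33.5 kb from the gene start, HpaII was 97.3 and 86.4 in infarcted and non-infarcted Neil3-null tissue, against 17.4 and 10.8 in wild type. MspI there was 98.0 and 109 in Neil3-null tissue, against 74.8 and 94.4 in wild type. HpaII over MspI at this site was thus 99.3% and 79.4% in Neil3-null tissue, against 23.2% and 11.5% in wild type.

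Among sites listed in all 4 samples, those from 27.5 to 38.5 kb from the gene start shared this direction. At 53600693 HpaII was only 4.29 and 7.98 in infarcted and non-infarcted Neil3-null tissue, against 3.56 and 3.08 in wild type. At 53602724 HpaII of wild-type infarcted tissue was 3.60. The direction at these sites rests on values near the low end of the signal. At 53611587 HpaII was 123 and 129 in infarcted and non-infarcted Neil3-null tissue, against 74.9 and 84.7 in wild type. At 53603378 it was 73.3 and 78.0, against 48.3 and 48.2 in wild type, and at 53600558 it was 44.4 and 59.9, against 24.4 and 17.9. The site missing from both Neil3-null samples, at 53608723, lies between 53605559 and 53611587, as does a site at 53609623 that was listed in wild-type non-infarcted tissue alone. No other site of the gene was listed in wild type and in neither Neil3-null sample.

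The sites at the gene start overlapped between genotypes, and the site near the other end did not. At the promoter site in the sequence above, which begins 148 bases before the gene start at 53639210, HpaII was 104 and 54.2 in infarcted and non-infarcted Neil3-null tissue, against 85.8 and 75.8 in wild type. MspI was 8.00 and 9.59 in Neil3-null tissue, against 8.97 and 8.78 in wild type. At 53638851, just inside the gene start, HpaII was 122 and 119 in Neil3-null tissue, against 90.1 and 123 in wild type. At 53587715, near the other end, HpaII was 11.5 and 8.10 in Neil3-null tissue, against 3.56 and 3.10 in wild type, all near the low end of the signal. The ratio of HpaII to MspI at that site was higher in Neil3-null tissue by 1.64 and 1.61 on the log2 scale.

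**Figure D5:**
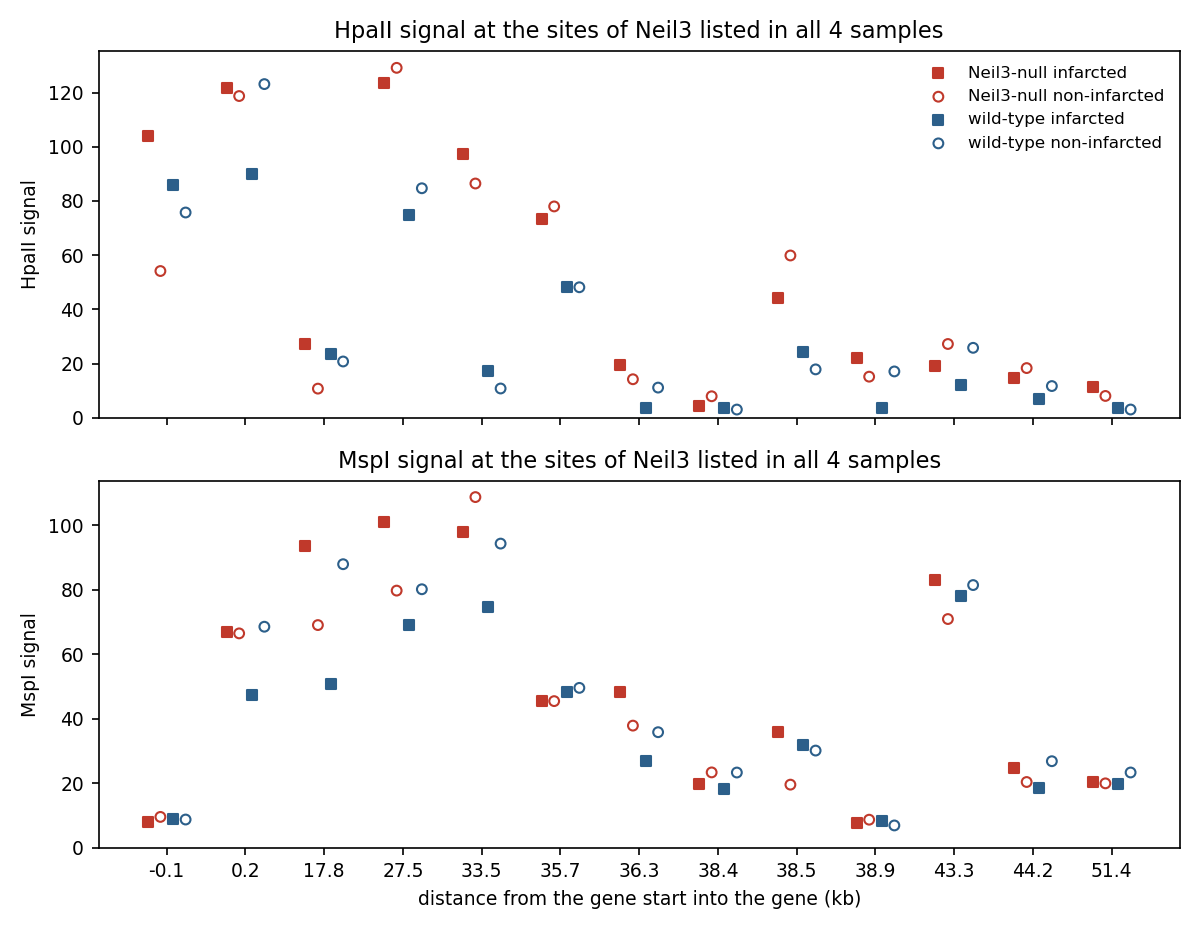
HpaII (top) and MspI signal (bottom) of the 13 sites of Neil3 listed in all 4 samples, ordered by distance from the gene start, with Neil3-null samples in red and wild-type samples in blue, infarcted as squares and non-infarcted as circles. From 27.5 kb on, HpaII of Neil3-null tissue stands above wild type at most sites, with 97.3 and 86.4 against 17.4 and 10.8 at 33.5 kb, while MspI overlaps at 10 of the 13 sites and not at the one at 33.5 kb.

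Among the measured genes of the region Neil3 had the largest rise by the smaller of its 2 tissue differences. Of 129 protein-coding genes, 73 had at least 10 sites used. The index was at least 20 points higher in Neil3-null tissue in both tissues in Neil3 alone and lower by that amount in none, against backgrounds of 0.163% in each direction (1 and 1 of 614 genes) in the rest of the chromosome. Neil3 rests on few sites: without 53605559 its infarcted difference of 12.7 points falls short of 20 and of the 17.1, 16.7 and 16.3 points of Zfp42, Pdlim3 and Gtf2e2, and with a minimum signal of 20 it keeps 8 sites and no gene is called. At 10 points 8 genes were higher and 5 lower, against backgrounds of 1.95% and 2.28%. Between tissues, r of the genotype difference over genes was 0.491 in the region and 0.131 in the rest.

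Next after Neil3 came 4 genes below the 20-point rule. Pdlim3, an actinin-binding protein of the muscle Z-disc, was at 103.0 and 109.4 in infarcted and non-infarcted Neil3-null tissue, against 86.3 and 88.3 in wild type, a difference of 16.7 ± 4.95 and 21.1 ± 7.78 points over 29 sites. None of its 30 wild-type sites was missing. At its promoter site 20 bases before the gene start, HpaII was 96.0 and 78.4 in Neil3-null tissue, against 81.3 and 103.4 in wild type, and the genotypes overlapped. At its other promoter site, 31 bases after the gene start and outside the printed sequence, they did not, with HpaII of 132.5 and 131.1 in Neil3-null tissue, against 93.3 and 127.5 in wild type, and MspI of 48.7 and 33.3 in Neil3-null tissue, against 25.1 and 23.7 in wild type. The log2 difference of HpaII over MspI there was -0.45 in each tissue. Zfp42, a zinc finger protein of pluripotent cells, differed by 17.1 ± 18.2 and 23.1 ± 25.6 points, Gtf2e2, a subunit of the transcription factor TFIIE, by 16.3 ± 9.52 and 17.9 ± 13.9, and Lonrf1 by 12.6 ± 10.9 and 19.6 ± 6.31. The errors of Zfp42 exceeded its differences.

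Lower genes had wide errors too. Gsr, glutathione reductase, was at 83.7 and 82.1 in infarcted and non-infarcted Neil3-null tissue, against 116.3 and 98.4 in wild type, a difference of -32.6 ± 12.5 and -16.3 ± 12.4 points over 35 sites, and 10 of its 49 wild-type sites were missing. Ppp2cb, a catalytic subunit of protein phosphatase 2A, differed by -46.1 ± 32.7 and -16.8 ± 25.8, and Saraf, a regulator of store-operated calcium entry, by -11.1 ± 27.1 and -47.3 ± 23.2. Triml2 differed by -12.9 ± 13.4 and -11.6 ± 17.8, and Leprotl1 by -15.2 ± 13.3 and -10.7 ± 13.8. Of the 5 largest falls by site, 33688543 lay in Gsr and 33607192 in Ppp2cb. At 33688543 HpaII was 14.3 and 7.92 in infarcted and non-infarcted Neil3-null tissue, against 77.9 and 130.9 in wild type. At 33607192 MspI was 120 and 100, against 4.54 and 16.8, while HpaII was 55.4 and 63.5, against 61.2 and 69.8. The index of these genes without these sites was not computed.

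The gene lists are given with their missing sites, for which the share inside all protein-coding genes of the region was 10.5%. Of 5 DNA repair and chromatin genes (Neil3, Wrn, Ing2, Hmgb2, Sap30), 2 had enough sites, Neil3 and Wrn, and Wrn differed by -2.70 ± 17.0 and 5.81 ± 12.4 points. Of the others, Ing2 and Sap30, subunits of histone deacetylase complexes, had 0 of 10 and 1 of 6 wild-type sites missing, and Hmgb2, a high mobility group protein, 0 of 5. Over the list 23 of 91 wild-type sites were missing (25.3%), of which Wrn had 21. Over 8 genes of heart muscle and energy 41 of 650 wild-type sites were missing (6.31%). Of these genes 5 were measured and 0 were called at 20 points. Their median difference was 3.08 points in infarcted and 6.75 in non-infarcted tissue. The medians were 0.204 and 5.02 over the 73 measured genes of the region and 0.896 and 2.32 over the 614 genes of the rest. The 5 measured were Pdlim3, Nrg1 (3.04 ± 3.13 and 6.75 ± 2.75), the acyl-CoA synthetase gene Acsl1 (13.1 ± 5.34 and 3.88 ± 4.47), Mtus1 (0.960 ± 13.2 and 11.8 ± 10.6) and Sorbs2 (3.08 ± 3.17 and -2.52 ± 2.62).

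Hpgd, an enzyme that inactivates prostaglandins, had 0 of 10 wild-type sites missing. Slc25a4, which encodes the mitochondrial ADP/ATP carrier of heart, and Hand2, a transcription factor of heart development, had 8 and 9 wild-type sites and none missing, and all 3 had too few sites for an index. At the promoter site of Slc25a4, 130 bases before the gene start, HpaII was 89.9 and 73.4 in infarcted and non-infarcted Neil3-null tissue, against 60.5 and 64.6 in wild type. At that of Hand2, 60 bases before the gene start, HpaII was 90.6 and 81.6 in Neil3-null tissue, against 83.2 and 109 in wild type. The genotypes overlapped at Hand2 and not at Slc25a4. HpaII of both Neil3-null samples lay above both wild-type samples at 24.8% of all sites used of the region.

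A list set up for vessels and matrix held 6 genes, of which 4 were measured, with 17 of 886 wild-type sites missing (1.92%). The teneurin gene Tenm3 and the netrin receptor gene Unc5d held 634 and 192 of these sites. They had 15 and 1 of the missing ones, so the share mostly describes them and not vessel genes. Vegfc had 0 of 25 missing. The median difference of the 4 was 0.166 points in infarcted and 5.14 in non-infarcted tissue. Vegfc, the growth factor of lymphatic vessels, distal of Neil3, stood at 118.1 and 103.0 in infarcted and non-infarcted Neil3-null tissue, against 87.6 and 90.7 in wild type, a difference of 30.4 ± 10.3 and 12.3 ± 10.9 points. Tenm3 differed by 2.77 ± 1.51 and 4.95 ± 1.25, Unc5d, a netrin receptor gene at the proximal border, by -2.44 ± 2.62 and 5.33 ± 2.41, and Klkb1, plasma prekallikrein, by -18.0 ± 7.90 and 4.71 ± 6.45. No gene of the list passed 20 points in both tissues. The unmeasured Fgl1 and F11 had 1 of 9 and 0 of 7 wild-type sites missing.

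Of 6 genes of immunity and cell death 4 were measured, with 27 of 183 wild-type sites missing (14.8%), against 10.5% inside all protein-coding genes of the region. Gsr is given above. Asah1, acid ceramidase, differed by 10.6 ± 4.72 and 9.44 ± 4.44 points, and Irf2, an interferon regulatory factor, by 17.5 ± 8.24 and 2.09 ± 7.62. Msr1, the macrophage scavenger receptor, had 8 of 18 wild-type sites missing and Tlr3, the receptor of double-stranded RNA, 0 of 8, and both had too few sites for an index. A list meant for neurons held Gpm6a, Glra3, Mtnr1a and Adam29, the last a gene of the ADAM metalloprotease family. Of these 4 genes 3 were measured, with 6 of 107 wild-type sites missing (5.61%) over the list. Adam29 had 0 of 9 missing and too few sites for an index. The median difference of the 3 was -9.44 points in infarcted and 3.53 in non-infarcted tissue. Gpm6a differed by -9.44 ± 5.50 and 3.53 ± 4.44, Glra3 by -7.19 ± 5.54 and 8.03 ± 7.79, and Mtnr1a by -15.8 ± 11.6 and -2.79 ± 14.3. Of the 16 genes of these lists that were measured outside the DNA repair list, none passed 20 points in both tissues.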

How the data were processed

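HMST-seq libraries cut with HpaII, MspI, or MspI after glucosylation were analysed in 4 samples, 1 per group. Each file gives, for every listed site, 3 values that the authors normalized and deposited as signal, on build mm10 by the submitters' processing notes. Aligner, filters, normalization and listing rule were not given in the sources used here. File positions count from 0, so the motif starts 1 base later. Depth in tags is unknown, so no interval on signal is given; Wilson intervals (95%) and limits of 3 counts on shares of sites cover counting only.

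Sites for signal had to be listed in all 4 samples with a mean MspI and C+mC signal over these samples together of at least 10 (912550 autosomal sites). Site ratios were centred on the median of the rest of chromosome 8 and called at 2-fold in both tissues; genes (RefSeq span plus 1 kb, at least 10 sites) were called at 20 points in both. No test was run, since each group has 1 sample. Named genes were Neil3, the gene lists given, the 5 with most missing sites and the 5 largest rises and falls, predicted names left out; named sites followed the same rule. A gene of the immunity and cell death list is not reported here. The region, lists and thresholds were chosen with earlier results of these data known. Alternatives changed the minimum signal, fold, points, scaling, bins and gene span. Steps were tested on simulated data and ran in Python 3.11.15 with numpy 2.4.6, pandas 2.3.3 and matplotlib 3.10.9.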

Additional observations from a re-analysis of the deposited data

Results flagged for a closer look

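Rnf122, which encodes a RING finger protein, had a genotype difference in the C+mC index of opposite sign in the 2 tissues. In infarcted tissue the index was 128.0 in Neil3-null and 107.2 in wild type, a difference of 20.7 ± 21.8 points (jackknife SE over 12 sites). In non-infarcted tissue it was 105.8 in Neil3-null and 126.0 in wild type, a difference of -20.2 ± 21.1. The non-infarcted difference minus the infarcted one was -40.9 points, and this difference between tissues was not tested. Both single differences were about the size of their errors. Of the 15 wild-type sites of the gene, 2 were missing from both Neil3-null samples.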

How the results depend on the processing

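Of 65 alternative values for 16 results, 51 were classed as the same result, 14 as moved and 0 as reversed. The class of the same result does not mean a close value. It includes the infarcted index difference between region and rest, 0.893 points as reported and 1.39 with shifted bins. Sites with a higher unmodified ratio, 246 as reported and 179 with a minimum signal of 20, are in it too. Medians on the log2 scale, also in this class, are in another unit than points. The share of wild-type sites missing from both Neil3-null samples was 12.7% with an MspI signal of at least 10 in both wild-type samples and 11.9% with at least 20. Missing from the 1 Neil3-null sample of the same tissue were 17.0% in infarcted and 17.5% in non-infarcted tissue, against 2.55% and 2.78% in the rest of chromosome 8. Sites with a higher unmodified ratio numbered 576 at 1.5-fold and 99 at 3-fold, against 246 as reported. Sites with a lower ratio numbered 458 and 43 at the same folds and 90 with a minimum signal of 20, against 165. The unmodified index was higher in 8 genes at 10 points, 0 at 30 points, 0 with a minimum signal of 20, where Neil3 kept 8 sites and fell under the minimum of 10 sites per gene, and 2 with no minimum signal (Neil3 and Zfp42). It was lower in 5 genes at 10 points.

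Chosen after seeing the data were the background without 59 to 62 Mb, sites of steady MspI, Neil3 without its largest site, and r of the genotype difference under other minimum signals. That r ran from 0.509 to 0.619 for MspI and from 0.289 to 0.355 for the unmodified ratio. No paired analysis was possible because each group has 1 sample and no test was run. The unknown number of tags and the single sample per group limit every difference in signal.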
